A study of Mus musculus with 6 samples.

Results

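Ribosomes are assembled in the nucleolus, where RNA polymerase I (Pol I) transcribes the ribosomal DNA repeats into a long precursor rRNA. Small nucleolar ribonucleoproteins (snoRNPs) then modify that precursor, and large sets of assembly factors cut, fold and package it into the small and the large ribosomal subunit. Most of these factors are themselves products of ordinary mRNA genes, many of them known targets of the transcription factor MYC, and their demand follows cell growth. Platinum drugs crosslink DNA, and oxaliplatin in particular is known to disturb the nucleolus, which makes the mRNA levels of this machinery of interest after each drug.

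The genes described here are 58 ribosome biogenesis and Pol I genes, given as a list of symbols and found in the count table through their Ensembl identifiers. They are 58 of the 54446 genes in the table and 58 of the 14956 that passed the filter on low counts, so that no member of the list was lost. By role they fall into 3 genes of the box C/D snoRNP, 4 of the box H/ACA snoRNP, 9 other nucleolar proteins, 18 factors of the small subunit, 17 factors of the large subunit and 7 genes of the Pol I machinery.

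The mRNA was measured by poly(A) RNA-seq in TRAMP-C2, a male C57BL/6 prostate cancer cell line derived from a TRAMP mouse, in which the probasin promoter drives SV40 T antigen in prostate epithelium. The 3 groups were untreated cells, cells given 2 µM oxaliplatin (Oxali) and cells given 2 µM cisplatin, all taken at 24 h, with 2 libraries in each group. All 6 libraries come from this 1 line, and the labels do not say whether libraries of a group came from separate cultures, so the p-values below measure only the spread between these libraries. Myc-CaP cells and a 20 µM dose, which the design text also names, were not analysed here.

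The libraries held 21345312 to 24041767 counts, and DESeq2 size factors lay between 0.964 and 1.08. The mouse's own probasin gene Pbsn and the basal epithelial marker Krt5 had 0 counts in all 6 libraries. Epcam had 0 to 2 and Krt8 had 93.0 to 133, whereas the mesenchymal genes Vim, Col1a1 and Fn1 had 53688 to 124765. Ptprc, Cd3e and Cdh5, which define leukocytes and endothelium, had at most 1 count, Cd68 had 30 to 51 and Pecam1 had 1 to 8.

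The start sites of several of these genes carry short motifs that are common in growth-related promoters, and 5 promoters are shown because their genes are among those described below. Promoter windows from RefSeq (build GRCm38.p6, 300 bases around each annotated start) were found for 52 of the 58 genes. Bop1, Fbl, Npm1, Rrp12, Rrs1 and Tcof1 had none in the table used. Each line gives 120 bases before the start and 30 after it, 5′ to 3′ on the plus strand. Capitals mark CACGTG, the E-box that MYC and MAX bind, and CCGGAAG or its reverse complement CTTCCGG, the core that ETS factors bind.
Nop2 (chr6:125131763-125131912): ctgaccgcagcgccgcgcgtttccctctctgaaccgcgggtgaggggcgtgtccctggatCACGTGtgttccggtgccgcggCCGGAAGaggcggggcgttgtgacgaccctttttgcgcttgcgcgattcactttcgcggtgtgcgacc
Rrn3 (chr16:13780579-13780728): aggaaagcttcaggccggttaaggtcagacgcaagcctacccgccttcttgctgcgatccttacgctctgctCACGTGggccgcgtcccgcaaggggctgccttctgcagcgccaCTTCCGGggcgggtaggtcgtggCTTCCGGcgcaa
Wdr43 (chr17:71616095-71616244): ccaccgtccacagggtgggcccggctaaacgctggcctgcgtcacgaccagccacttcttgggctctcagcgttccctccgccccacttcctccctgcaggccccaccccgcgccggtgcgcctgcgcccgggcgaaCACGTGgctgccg
Heatr1 (chr13:12395255-12395404): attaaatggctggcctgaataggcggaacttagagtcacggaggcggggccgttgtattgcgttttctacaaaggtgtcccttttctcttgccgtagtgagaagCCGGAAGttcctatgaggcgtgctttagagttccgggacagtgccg
Nolc1 (chr19:46075727-46075876): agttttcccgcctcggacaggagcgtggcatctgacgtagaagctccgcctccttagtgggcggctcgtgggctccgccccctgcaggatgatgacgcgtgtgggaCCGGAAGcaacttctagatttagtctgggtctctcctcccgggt

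Nop2 and Rrn3 hold both motifs in these stretches, Wdr43 holds the E-box alone, and Heatr1 and Nolc1 hold the ETS core alone. Over the full windows and both strands, CACGTG was present in 12 of the 52 genes (23.1%), against 11.6% of the 10389 tested genes with a window and 8.09% of all 27025 genes with one. CCGGAAG was present in 21 of the 52 (40.4%), against 20.0% of tested genes and 9.93% of all genes. TATAAA, the TATA box core, was present in 3 of the 52 (5.77%), against 8.91% and 15.7%. Because several genes have more than 1 window, the shares were also counted by window of the same length. CACGTG was then in 19.7% of the 61 windows of these genes and 7.15% of all windows, and CCGGAAG in 36.1% and 8.86%. Of the CACGTG matches, 11 of 13 lay within 100 bases of the start, as did 29 of 32 CCGGAAG matches. These letters do not overlap each other, and a match is a description of the sequence, not evidence of a bound factor.

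The first question was whether these mRNAs moved with Oxali. Relative to control, 52 of the 58 genes (89.7%) rose after Oxali and 1, Ubtf, fell, at an adjusted p below 0.05 (DESeq2, Benjamini-Hochberg adjustment). Over all tested genes 10.7% were called higher and 9.5% lower. The median log2 fold change of the 58 genes was 0.39, a 1.31-fold higher level, and single genes ranged from -0.21 to 0.97. The median over all tested genes was -0.003, which the scaling holds near 0. Both Oxali libraries lay above both control libraries for 56 genes, where 32.1% of all tested genes did so. As a share of all counts the 58 genes took 0.799% and 0.812% in the control libraries and 1.06% and 1.05% in the Oxali libraries.

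After cisplatin at the same dose and time, 49 of the 58 genes (84.5%) rose and none fell by the same DESeq2 test. Of all tested genes, 15.7% were called higher and 12.4% lower. The count of called genes lower after cisplatin was 0 in edgeR as well. It became 1 in DESeq2 with scaling to total counts, where Ubtf was called lower. In the main DESeq2 fit 50 of the 58 genes had an unadjusted p below 0.05 in either direction, against 5338 of the 14956 tested genes. The median log2 fold change was 0.34, a 1.26-fold higher level, with a range from -0.09 to 0.79. Both cisplatin libraries lay above both controls for 53 genes, where 34.6% of all tested genes did so. The share of all counts was 0.974% and 0.990%.

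Both comparisons use the same control libraries, so their values are set side by side rather than correlated. The calls were higher in both for 48 genes. How many of all tested genes were called higher in both was not counted, so this number has no background share beside it. In DESeq2 Brix1, Fbl, Npm1 and Rrp1b were called only after Oxali, Polr1e only after cisplatin, and Nop10, Polr1c, Ppan and Taf1d in neither. In edgeR Polr1e, Nop10 and Taf1d were also called after Oxali (adjusted p = 0.0204, 0.0429 and 0.0498) and Polr1c after cisplatin (adjusted p = 0.0169). The share of all tested genes that edgeR called against control was not counted, so these calls have no such share beside them. The size of the change was modest in both. It reached 1.5-fold in 8 genes after Oxali (Ddx21, Heatr1, Nop2, Rrp12, Rrp9, Rrs1, Utp20 and Wdr43) and in 7 genes after cisplatin (Ddx21, Nhp2, Nolc1, Nop2, Pno1, Rrp12 and Rrp9).

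The replicate libraries lay close together. The median log2 ratio of the 58 genes to the control mean was -0.01 and 0.01 in the controls. It was 0.40 and 0.38 after Oxali, and 0.33 and 0.36 after cisplatin. The median over all tested genes was within 0.004 of 0 in every library, which follows from the scaling by size factors. With scaling to total counts in place of DESeq2 size factors, the counts were 52 higher and 1 lower after Oxali and 46 higher and 1 lower after cisplatin. That scaling moved the split over all genes to 9.87% higher and 10.5% lower after Oxali, and to 12.2% higher and 15.9% lower after cisplatin. Shares over all genes were not counted for the fits without 1 library that follow. Leaving out 1 library at a time left 39 to 51 genes called after Oxali and 37 to 47 after cisplatin.

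**Figure D1:**
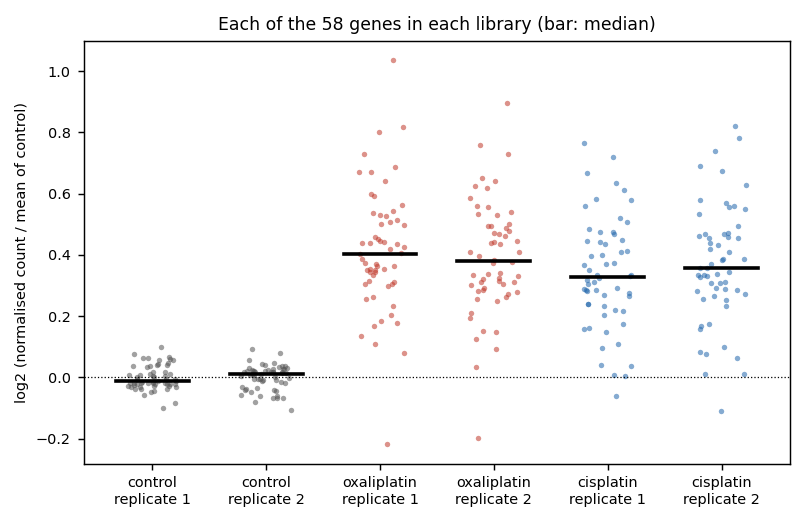
Log2 ratio of the normalised count to the mean of the control libraries (vertical axis) for each of the 58 genes in each of the 6 libraries (horizontal axis), with 1 point per gene and a bar at the median. The medians of both Oxali libraries (0.40 and 0.38) and both cisplatin libraries (0.33 and 0.36) lie above those of the controls (-0.01 and 0.01).

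Box C/D snoRNPs place methyl groups on rRNA, with fibrillarin (Fbl) as the methyltransferase and Nop56 and Nop58 as the scaffold. Nop56 had 6110 and 5963 normalised counts in control cells, 9092 and 8884 after Oxali, and 8162 and 8354 after cisplatin. The groups did not overlap, and Oxali cells were the highest. The log2 fold change was 0.57 ± 0.04 (SE; adjusted p in DESeq2 = 4.24e-42) after Oxali and 0.45 ± 0.04 (adjusted p in DESeq2 = 4.24e-26) after cisplatin. Nop58 had 3491 and 3591 normalised counts in control, 4579 and 4811 after Oxali, and 4459 and 4464 after cisplatin, log2 fold changes of 0.41 ± 0.05 and 0.33 ± 0.05 (SE).

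Fbl had 3200 and 2869 normalised counts in control, 3731 and 3474 after Oxali, and 3116 and 3217 after cisplatin, so that the cisplatin and control libraries overlapped. Fbl rose after Oxali by 0.25 ± 0.07 on the log2 scale (adjusted p in DESeq2 = 0.00264) and had a log2 fold change of 0.06 ± 0.07 after cisplatin (adjusted p in DESeq2 = 0.555). The Oxali call was lost without control replicate 2 (0.17, adjusted p in DESeq2 = 0.13) and without Oxali replicate 1 (0.19, adjusted p in DESeq2 = 0.178).

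Box H/ACA snoRNPs convert uridine to pseudouridine, and their 4 core proteins were all measured. Dkc1, the pseudouridine synthase dyskerin, had 2098 and 2110 normalised counts in control, 2875 and 2742 after Oxali, and 2443 and 2539 after cisplatin. Its 3 groups were separate, with log2 fold changes of 0.42 ± 0.06 and 0.24 ± 0.06 (SE; adjusted p in DESeq2 = 6.55e-10 and 0.000676). The cisplatin call was lost without cisplatin replicate 2, where the log2 fold change was 0.21 (adjusted p in DESeq2 = 0.0916).

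The order of the drugs was the other way round for Nhp2, a core protein of the same particle, with 1615 and 1474 normalised counts in control, 2099 and 1941 after Oxali, and 2397 and 2270 after cisplatin. Its log2 fold changes were 0.39 ± 0.08 and 0.60 ± 0.08 (SE; adjusted p in DESeq2 = 1.3e-05 and 1.37e-12). Gar1 rose by 0.23 ± 0.08 and 0.30 ± 0.08 on the log2 scale (SE; adjusted p in DESeq2 = 0.0277 and 0.00248). The Gar1 calls were lost in 5 of the 6 fits without 1 library after Oxali (adjusted p in DESeq2 = 0.0981 to 0.347) and without control replicate 2 or cisplatin replicate 1 after cisplatin (0.128 to 0.135). Nop10 had log2 fold changes of 0.17 ± 0.08 and 0.01 ± 0.08 and passed the DESeq2 test in neither comparison (adjusted p = 0.138 and 0.96).

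The 9 other nucleolar proteins rose in all cases after Oxali and in 8 of 9 after cisplatin. With scaling to total counts 7 rose after cisplatin, and Surf6 was no longer called (adjusted p in DESeq2 = 0.103). Nucleolin (Ncl), an abundant RNA-binding protein of the nucleolus, had 25295 and 26103 normalised counts in control, 33062 and 33829 after Oxali, and 32732 and 32912 after cisplatin. Both drug groups were separate from control and close to each other, with log2 fold changes of 0.38 ± 0.03 and 0.35 ± 0.03 (SE; adjusted p in DESeq2 = 6.13e-31 and 8.25e-27). Ddx21, an RNA helicase that acts in Pol I transcription and rRNA processing, had 5378 and 5679 in control, 8800 and 8678 after Oxali, and 8288 and 8816 after cisplatin. Its groups after the 2 drugs overlapped, with log2 fold changes of 0.66 ± 0.05 and 0.63 ± 0.05 (SE; adjusted p in DESeq2 = 1.12e-38 and 3.4e-35). Mybbp1a, a nucleolar MYB-binding protein, had 11312 and 11554 normalised counts in control, 17296 and 16632 after Oxali, and 14410 and 15418 after cisplatin. It rose by 0.57 ± 0.04 and 0.38 ± 0.04 on the log2 scale (SE; adjusted p in DESeq2 = 1.5e-35 and 2.38e-16).

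Nucleophosmin (Npm1), a chaperone of the granular nucleolus and the most highly expressed of the 58 genes per length (1273 TPM in control, a length-corrected level recomputed from counts and exon length), was called after Oxali alone. It had 26090 and 27155 normalised counts in control, 31956 and 33049 after Oxali, and 27395 and 26792 after cisplatin. Both Oxali libraries lay above both controls, while 1 cisplatin library lay within the control range and the other just above it. The log2 fold change was 0.29 ± 0.04 after Oxali (SE; adjusted p in DESeq2 = 3.83e-14) and 0.03 ± 0.04 after cisplatin (adjusted p in DESeq2 = 0.648).

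Nolc1 and Tcof1, related phosphoproteins that link Pol I with snoRNPs, showed the opposite order. Nolc1 had 5411 and 5549 normalised counts in control, 7958 and 7719 after Oxali, and 9320 and 9680 after cisplatin. Its cisplatin change, 0.79 ± 0.04 on the log2 scale (SE; adjusted p in DESeq2 = 2.48e-71), was the largest of the 58 genes after that drug, against 0.52 ± 0.04 (adjusted p in DESeq2 = 8.77e-30) after Oxali. Tcof1 had 3099 and 3091 in control, 3825 and 3785 after Oxali, and 4303 and 4277 after cisplatin. Its log2 fold changes were 0.30 ± 0.05 and 0.47 ± 0.05 (SE; adjusted p in DESeq2 = 3.98e-08 and 8.97e-20). The remaining nucleolar genes, Npm3, Gnl3 and Surf6, rose after both drugs by 0.33 to 0.41 after Oxali and 0.24 to 0.31 after cisplatin on the log2 scale. The Surf6 call was lost in 3 fits without 1 library after Oxali (adjusted p in DESeq2 = 0.0666 to 0.153) and in all 6 after cisplatin (0.129 to 0.264).

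**Figure D2:**
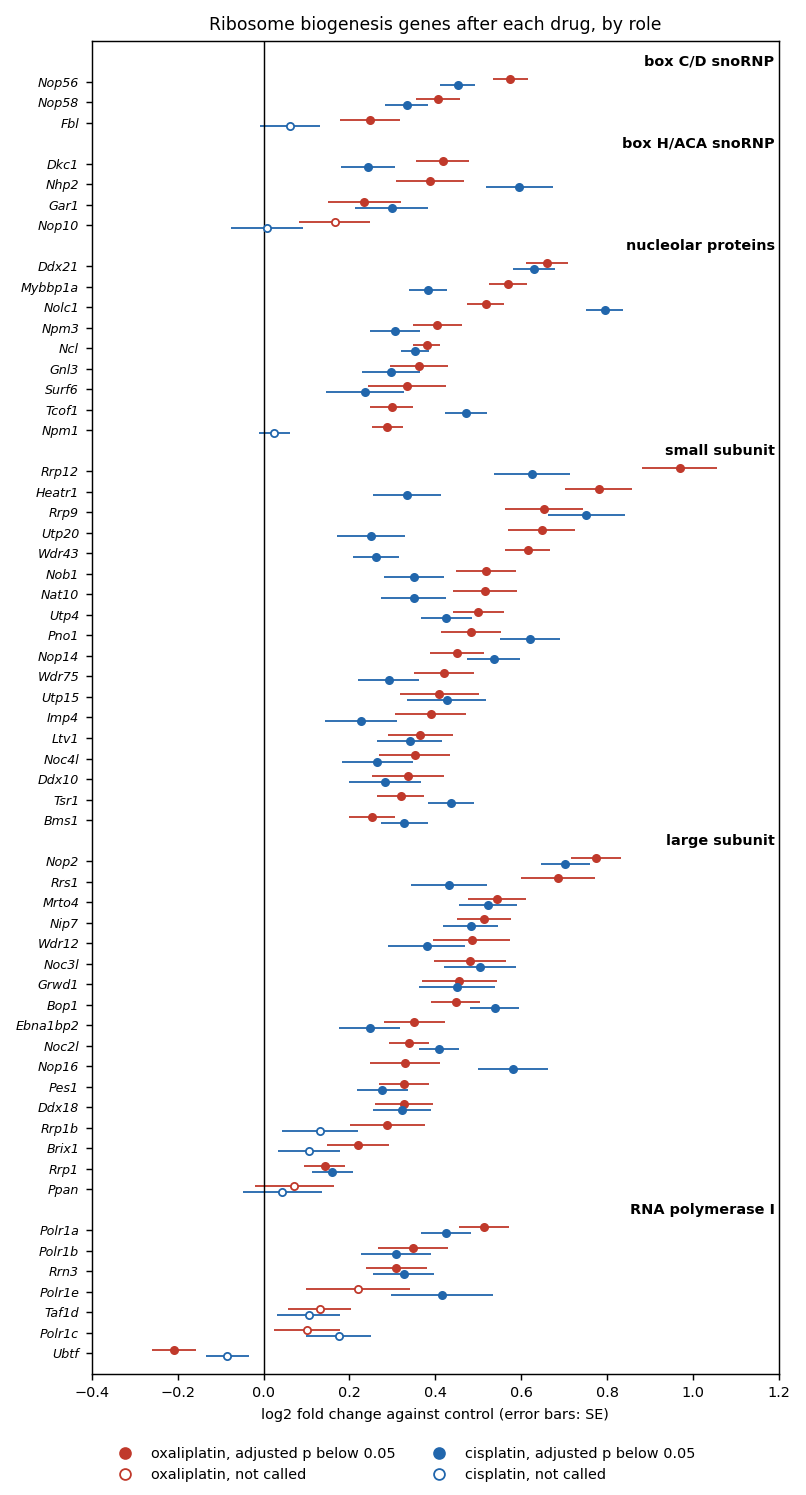
Log2 fold change against control (horizontal axis) for each of the 58 genes, grouped by role, after Oxali (red) and cisplatin (blue). Error bars are the SE and filled points have a DESeq2 adjusted p below 0.05. All 18 small-subunit factors are filled for both drugs, and Ubtf is the only filled point to the left of 0.

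All 18 factors of the small subunit rose after both drugs, 17 of them after cisplatin with scaling to total counts, with median log2 fold changes of 0.47 after Oxali and 0.34 after cisplatin. Rrp12, a HEAT-repeat export factor, showed the largest change of all 58 genes after Oxali. It had 970 and 1013 normalised counts in control, 2034 and 1846 after Oxali, and 1461 and 1598 after cisplatin, with no overlap between groups. Its log2 fold changes were 0.97 ± 0.09 (1.96-fold) and 0.62 ± 0.09 (1.54-fold; SE; adjusted p in DESeq2 = 1.19e-25 and 7.53e-11). Rrp9, a protein of the U3 snoRNP that directs the first cuts of the precursor, rose by 0.65 ± 0.09 and 0.75 ± 0.09 (SE; adjusted p in DESeq2 = 2.45e-11 and 4.38e-15).

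Heatr1, Wdr43 and Utp20 are parts of the large processome that forms on the nascent precursor rRNA. Heatr1 had 1631 and 1864 normalised counts in control, 3044 and 2958 after Oxali, and 2126 and 2283 after cisplatin. Wdr43 had 3038 and 3112 in control, 4798 and 4621 after Oxali, and 3614 and 3763 after cisplatin. Utp20 had 2307 and 2578 in control, 3892 and 3763 after Oxali, and 2726 and 3084 after cisplatin. In all 3 genes the groups were separate, with control lowest and Oxali highest. The log2 fold changes after Oxali were 0.78 ± 0.08, 0.62 ± 0.05 and 0.65 ± 0.08, and after cisplatin 0.33 ± 0.08, 0.26 ± 0.05 and 0.25 ± 0.08 (SE). The cisplatin calls were lost for Heatr1 without cisplatin replicate 2 (adjusted p in DESeq2 = 0.0503), and for Utp20 without cisplatin replicate 2 (log2 fold change 0.16, adjusted p = 0.274) or control replicate 1 (0.17, adjusted p = 0.184).

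The late cytoplasmic factors of the small subunit moved as well. Nob1, the endonuclease that makes the final cut of 18S rRNA, and its partner Pno1 rose by 0.52 ± 0.07 and 0.48 ± 0.07 after Oxali and by 0.35 ± 0.07 and 0.62 ± 0.07 after cisplatin on the log2 scale (SE). Tsr1 and Ltv1, which ride on the maturing particle into the cytoplasm, rose by 0.32 ± 0.05 and 0.36 ± 0.08 after Oxali and by 0.44 ± 0.05 and 0.34 ± 0.08 after cisplatin. Nat10, the acetyltransferase of 18S rRNA, rose by 0.52 ± 0.08 and 0.35 ± 0.08. The lowest changes among the 18 were those of Bms1, a GTPase of the processome, after Oxali (0.25 ± 0.05, adjusted p in DESeq2 = 3.67e-05) and of Imp4 after cisplatin (0.23 ± 0.08, adjusted p in DESeq2 = 0.0226). The Imp4 cisplatin call was lost in all 6 fits without 1 library (adjusted p in DESeq2 = 0.0856 to 0.281) and with scaling to total counts. Ddx10 and Noc4l lost the cisplatin call in 4 such fits each (0.0511 to 0.229). Without Oxali replicate 1 the Oxali calls were lost for Ddx10 (0.144), Utp15 (0.0705), Noc4l (0.0631) and Imp4 (0.0569).

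Of the 17 large-subunit factors, 16 rose after Oxali and 14 after cisplatin, with medians of 0.35 and 0.41 on the log2 scale. With scaling to total counts 13 rose after cisplatin, and Rrp1 was no longer called (log2 fold change 0.11, adjusted p in DESeq2 = 0.0589). Nop2, the methyltransferase of 28S rRNA whose promoter is shown above, had 2565 and 2608 normalised counts in control, 4558 and 4286 after Oxali, and 4106 and 4314 after cisplatin. Its drug groups overlapped and both lay well above control, with log2 fold changes of 0.77 ± 0.06 (1.71-fold) and 0.70 ± 0.06 (1.63-fold; SE; adjusted p in DESeq2 = 4.6e-38 and 2.29e-31). Rrs1, which brings the 5S particle to the large subunit, rose by 0.69 ± 0.09 and 0.43 ± 0.09 (SE; adjusted p in DESeq2 = 1.75e-13 and 9.84e-06).

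Pes1, Bop1 and Wdr12 form the PeBoW complex, which is needed to process the internal spacer before 28S rRNA. They rose by 0.33 ± 0.06, 0.45 ± 0.06 and 0.48 ± 0.09 after Oxali and by 0.28 ± 0.06, 0.54 ± 0.06 and 0.38 ± 0.09 after cisplatin on the log2 scale (SE). The Wdr12 cisplatin call was lost without cisplatin replicate 2 (0.32, adjusted p in DESeq2 = 0.0702). Nop16 had 1090 and 1007 normalised counts in control, 1331 and 1302 after Oxali, and 1568 and 1568 after cisplatin. It rose by 0.33 ± 0.08 and 0.58 ± 0.08 on the log2 scale (SE; adjusted p in DESeq2 = 0.000557 and 3.04e-11). Its Oxali call was lost without control replicate 2 (adjusted p in DESeq2 = 0.0673) or Oxali replicate 1 (0.0874).

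Ppan was the exception among these factors in both comparisons, with 1506 and 1304 normalised counts in control, 1515 and 1437 after Oxali, and 1413 and 1482 after cisplatin. All 3 groups overlapped, and the log2 fold changes were 0.07 ± 0.09 and 0.04 ± 0.09 (SE; adjusted p in DESeq2 = 0.643 and 0.778). Brix1 and Rrp1b rose by 0.22 ± 0.07 and 0.29 ± 0.09 after Oxali (adjusted p in DESeq2 = 0.0117 and 0.00597) and had values of 0.11 ± 0.07 and 0.13 ± 0.09 after cisplatin (adjusted p in DESeq2 = 0.279 and 0.27). Those Oxali calls were lost in all 6 fits without 1 library for Brix1 (adjusted p in DESeq2 = 0.0501 to 0.306) and in 4 for Rrp1b (0.0705 to 0.209).

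Of the 7 genes of the Pol I machinery, 3 rose and 1 fell after Oxali, and 4 rose after cisplatin, with medians of 0.22 and 0.31 on the log2 scale. Polr1a, the largest catalytic subunit, had 3946 and 4060 normalised counts in control, 5917 and 5510 after Oxali, and 5188 and 5554 after cisplatin. Both drug groups lay above control and overlapped each other, with log2 fold changes of 0.51 ± 0.06 and 0.42 ± 0.06 (SE; adjusted p in DESeq2 = 4.94e-17 and 7.35e-12). Polr1b, the other catalytic subunit, had 1027 and 1037 in control, 1339 and 1288 after Oxali, and 1260 and 1297 after cisplatin. It rose by 0.35 ± 0.08 and 0.31 ± 0.08 on the log2 scale (SE; adjusted p in DESeq2 = 0.000207 and 0.00103). Rrn3, the factor that makes Pol I competent to initiate, had 1854 and 1940 in control, 2391 and 2308 after Oxali, and 2278 and 2479 after cisplatin, log2 fold changes of 0.31 ± 0.07 and 0.33 ± 0.07 (SE; adjusted p in DESeq2 = 0.000144 and 4.12e-05). Without Oxali replicate 1 the Oxali calls were lost for Polr1b (adjusted p in DESeq2 = 0.0861) and Rrn3 (0.0566), and without cisplatin replicate 2 the cisplatin call was lost for Polr1b (0.0972).

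Ubtf, the HMG-box protein that coats active ribosomal DNA, was the 1 gene of the 58 that fell. It had 4059 and 4008 normalised counts in control, 3465 and 3513 after Oxali, and 3868 and 3738 after cisplatin, and none of the 3 groups overlapped. Its log2 fold change was -0.21 ± 0.05 after Oxali (SE; adjusted p in DESeq2 = 0.000342) and -0.09 ± 0.05 after cisplatin (adjusted p in DESeq2 = 0.202). The level fell by 13.5% after Oxali, and without Oxali replicate 1 the log2 fold change was -0.20 (adjusted p in DESeq2 = 0.0794).

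Polr1e, a Pol I-specific subunit, had 444 and 457 normalised counts in control, 529 and 521 after Oxali, and 615 and 587 after cisplatin. It rose after cisplatin by 0.41 ± 0.12 on the log2 scale (SE; adjusted p in DESeq2 = 0.00273), and this call was lost without either cisplatin or either control library (adjusted p = 0.0563 to 0.139). Its value after Oxali was 0.22 ± 0.12 (adjusted p in DESeq2 = 0.181). Polr1c, a subunit shared with Pol III, and Taf1d, of the promoter selectivity factor, had log2 fold changes of 0.10 to 0.18 that passed the DESeq2 test in neither comparison, whereas edgeR called Polr1c after cisplatin and Taf1d after Oxali.

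**Figure D3:**
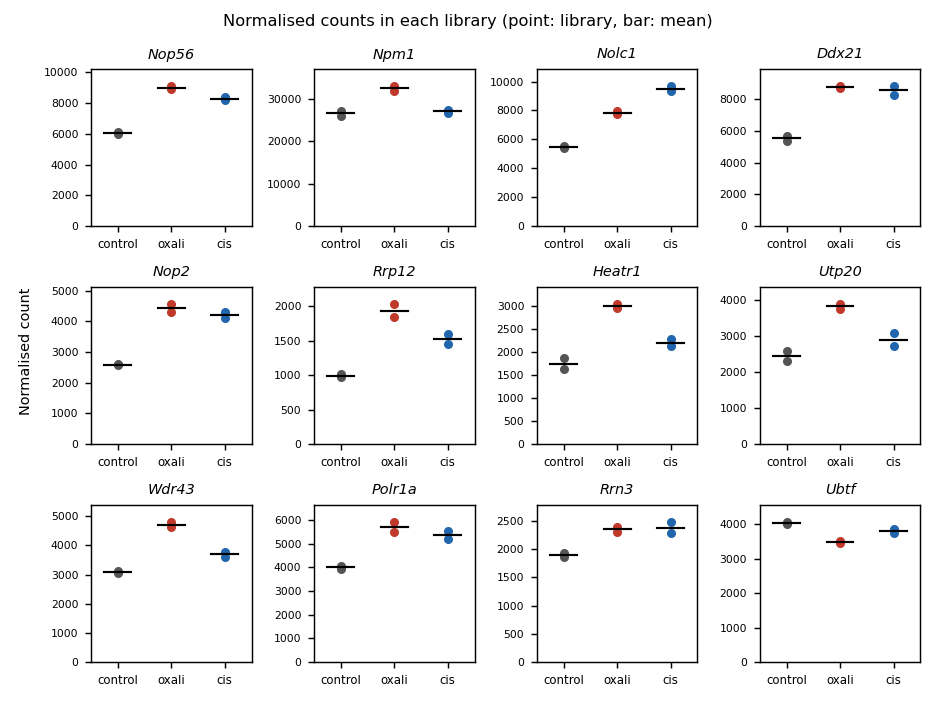
Normalised count (vertical axis, from 0) in each library for 12 of the genes, with control in grey, Oxali in red and cisplatin in blue. Points are libraries and bars are means of 2. Nop2 and Ddx21 lie at like levels after both drugs, Heatr1, Utp20, Wdr43 and Rrp12 are highest after Oxali, Nolc1 is highest after cisplatin, Npm1 is higher than control after Oxali alone, and Ubtf is lowest after Oxali.

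Both drugs are platinum compounds. Oxaliplatin carries a diaminocyclohexane ligand and an oxalate leaving group where cisplatin carries ammines and chlorides. They were compared directly at the same dose and time, 1 pair of compounds. Of the 58 genes, 10 (17.2%) were higher after Oxali than after cisplatin and 4 (6.90%) were lower (DESeq2), against 8.62% and 11.3% of all tested genes. The median difference was 0.04 on the log2 scale. With scaling to total counts the numbers were 12 and 3, against 10.8% and 9.12% of all tested genes.

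Heatr1 differed most, at 0.45 on the log2 scale (95% interval 0.29 to 0.60, adjusted p in DESeq2 = 2.94e-07). Utp20 followed at 0.40 (0.24 to 0.55, adjusted p in DESeq2 = 5.54e-06), then Wdr43 at 0.35 (0.25 to 0.46, adjusted p in DESeq2 = 8.42e-10). Npm1 was higher after Oxali by 0.26 (0.19 to 0.33, adjusted p in DESeq2 = 8.1e-12), less than Rrp12, which is given below. Nolc1 was lower after Oxali by 0.28 (-0.36 to -0.19, adjusted p in DESeq2 = 3.19e-09). These 5 differences were called under every alternative setting tried, including each fit without 1 library.

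The other 9 calls between the drugs did not hold in every fit with 1 library fewer. Rrp12 (0.34 ± 0.09, SE), Rrs1 (0.25 ± 0.09), Mybbp1a (0.19 ± 0.04), Fbl (0.19 ± 0.07), Dkc1 (0.17 ± 0.06) and Nop56 (0.12 ± 0.04) were higher after Oxali on the log2 scale. Nop16 (-0.25 ± 0.08), Nhp2 (-0.21 ± 0.08) and Tcof1 (-0.17 ± 0.05) were lower. Each of these 9 calls was lost in 2 or more of the fits without 1 library, where the adjusted p in DESeq2 lay between 0.0512 and 0.436. The calls of Rrp12 and Mybbp1a were lost where Oxali replicate 1 or cisplatin replicate 1 was left out. Those of Fbl, Nop16, Nop56, Rrs1 and Tcof1 were lost without any 1 of the 4 drug libraries, and those of Dkc1 and Nhp2 without any 1 of the 6 libraries. In the fits that lost the call, the log2 difference was -0.18 to -0.17 for Tcof1, -0.27 to -0.24 for Nop16, 0.27 to 0.28 for Rrp12 and 0.13 to 0.24 for Fbl.

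For 44 genes the drugs were not distinguished by this test, which does not show that they acted alike. The 95% interval of the difference lay within 1.3-fold in either direction for 43 of them. For Polr1e it ran from -0.43 to 0.04 on the log2 scale. Unlike the calls, the intervals are not adjusted for the number of genes. Among these genes they exclude 0 for Imp4, Nat10 and Nob1, higher after Oxali, and for Tsr1, Pno1 and Ubtf, lower after Oxali. The intervals were -0.06 to 0.13 for Ddx21, -0.04 to 0.18 for Nop2, -0.02 to 0.20 for Polr1a and -0.16 to 0.12 for Rrn3. For Brix1 and Rrp1b, called only after Oxali, they were -0.03 to 0.25 and -0.01 to 0.33. None of the 7 Pol I genes was called between the drugs in DESeq2, where 1 had an unadjusted p below 0.05. edgeR called Ubtf and Polr1e (adjusted p = 0.029 and 0.034). Over all 58 genes edgeR made 25 calls between the drugs, against 31.9% of all tested genes in both directions together.

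**Figure D4:**
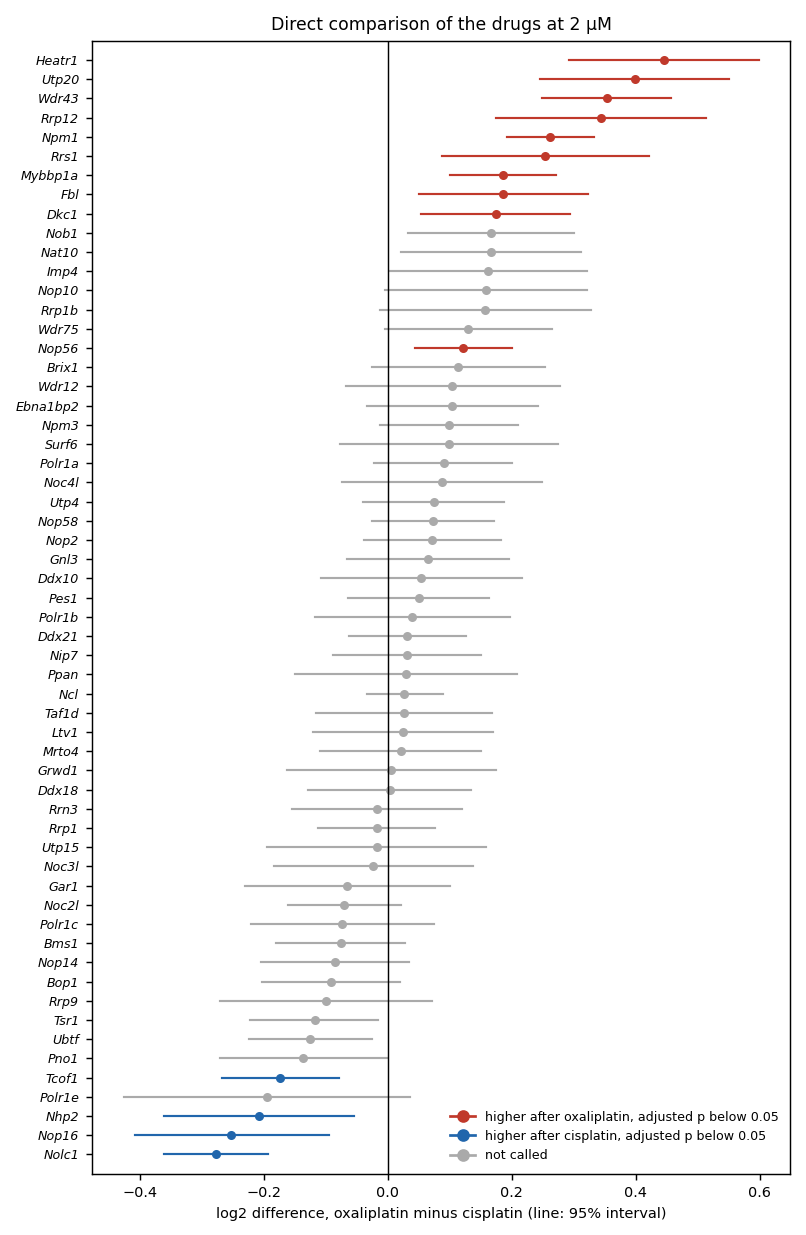
Log2 difference between Oxali and cisplatin (horizontal axis) for each of the 58 genes in order of size, with the 95% interval as a line. Red and blue mark the 10 genes called higher and the 4 called lower after Oxali in DESeq2. Heatr1, Utp20 and Wdr43 head the list and Nolc1 ends it.

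Other genes of the same pathway, 119 in all of which 118 were tested, gave a wider view of the machinery. After Oxali 71 of the 118 rose and 1 fell, a share of 60.2% higher, and after cisplatin 70 rose and 3 fell (59.3% higher). The medians were 0.28 and 0.27 on the log2 scale, and the shares higher over all tested genes were 10.7% and 15.7%. Between the drugs 13 were higher (11.0%) and 10 lower (8.47%) after Oxali, near the shares over all tested genes (8.62% and 11.3%). The number called in either direction was 44 without Oxali replicate 1 and 47 without Oxali replicate 2, and after cisplatin it was 42 without cisplatin replicate 2. Between the drugs it was 2 or 3 without any 1 of the drug libraries. Shares over all tested genes were not counted for these fits without 1 library. Among small-subunit factors 31 of 42 rose after Oxali and 30 after cisplatin. The examples Pwp2, Utp14a and Wdr46 of the processome rose by 0.63 ± 0.07, 0.60 ± 0.07 and 0.51 ± 0.07 after Oxali (SE) and by 0.49 ± 0.08, 0.46 ± 0.07 and 0.54 ± 0.07 after cisplatin. Rcl1, a processome protein, rose by 0.70 ± 0.08 after cisplatin.

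Among the other large-subunit factors 28 of 45 rose after each drug, and 1 fell after cisplatin. Ftsj3, a methyltransferase of the precursor, rose by 0.55 ± 0.04 and 0.50 ± 0.04 on the log2 scale (SE), and the helicase Ddx27 by 0.57 ± 0.06 and 0.40 ± 0.06. Of 10 snoRNP assembly factors, 5 rose after Oxali and 6 after cisplatin, or 3 after cisplatin with scaling to total counts. Snu13, the protein that nucleates box C/D particles, rose by 0.34 ± 0.05 after Oxali and had a value of 0.16 ± 0.05 after cisplatin, a call lost in all 6 fits without 1 library (adjusted p in DESeq2 = 0.0741 to 0.213). Of 13 tested genes of the nuclear exosome, which trims the precursor, 5 rose and 1 fell after Oxali and 4 rose and 1 fell after cisplatin.

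Of the 8 other Pol I genes, 2 rose after each drug and 1 fell after cisplatin. Polr1d, shared with Pol III, rose by 0.42 ± 0.06 and 0.38 ± 0.06 on the log2 scale (SE). Cd3eap, a Pol I-specific subunit, rose by 0.74 ± 0.11 and 0.39 ± 0.11. Taf1b, of the promoter selectivity factor, fell by 0.59 after cisplatin (SE 0.18, adjusted p in DESeq2 = 0.0055) and had a log2 fold change of -0.06 ± 0.18 after Oxali. Without 1 control or cisplatin library at a time the Taf1b call was lost (adjusted p in DESeq2 = 0.0626 to 0.162). The Cd3eap cisplatin call was lost without control replicate 1 (0.0501), control replicate 2 (0.09) or cisplatin replicate 2 (0.209). The other 5 passed the DESeq2 test in neither comparison.

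Lists that border on the pathway were counted in the same way. Over all tested genes 10.7% were called higher and 9.5% lower after Oxali. After cisplatin these shares were 15.7% and 12.4%, or 12.2% and 15.9% with scaling to total counts. Of 7 subunits of Pol II, 1 (14.3%) rose after Oxali and 4 (57.1%) after cisplatin, or 2 after cisplatin with that scaling. Of 11 subunits of Pol III, 1 (9.09%) rose after Oxali, and 4 (36.4%) rose and 1 fell after cisplatin. The 79 cytosolic ribosomal protein genes encode the structural parts of the ribosome. Of these, 15 (19%) rose and 3 fell after Oxali and 29 (36.7%) rose after cisplatin. Their medians were 0.09 and 0.10 on the log2 scale, and the cisplatin count was 17 with scaling to total counts. Of 12 tested noncoding genes that host snoRNAs in their introns, 6 (50%) rose after Oxali and 5 (41.7%) after cisplatin, or 3 after cisplatin with that scaling. Zfas1 rose by 0.69 ± 0.07 and 0.48 ± 0.07, and Snhg1 by 0.39 ± 0.06 and 0.84 ± 0.06 (SE). No test was run of one list against another.

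**Figure D5:**
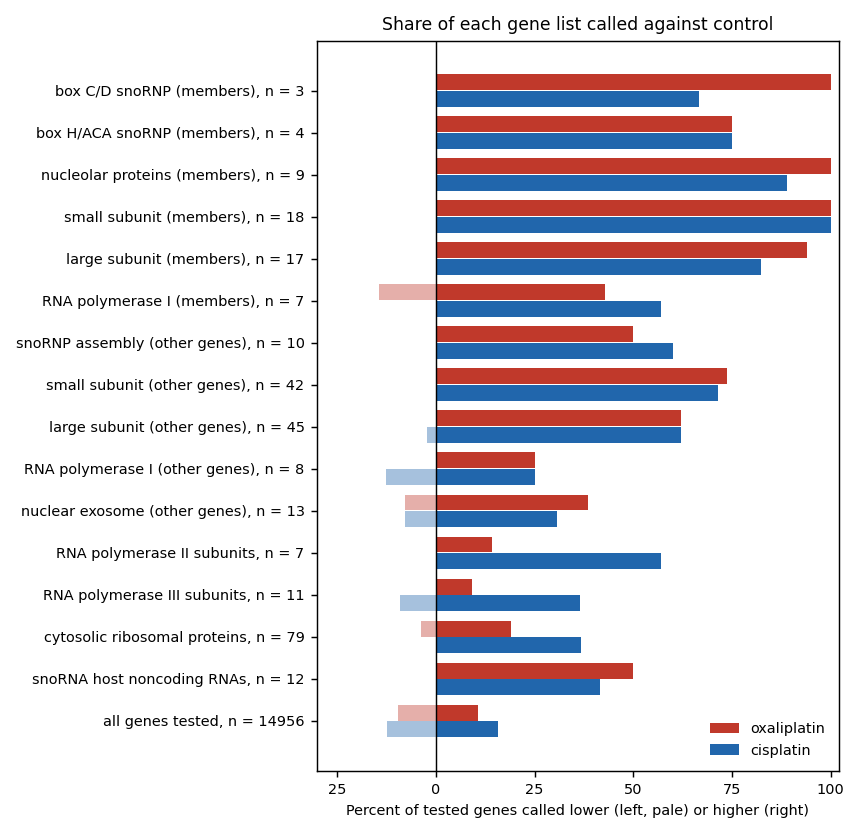
Percent of the tested genes of each list called higher (right) or lower (left, pale) against control in DESeq2, for Oxali (red) and cisplatin (blue), with the number of genes beside each name. The 18 small-subunit members reach 100% for both drugs, and the bottom row gives all tested genes (10.7% and 15.7% higher).

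In untreated cells these genes were expressed well above most others. Their median level per length was 71.2 TPM in control, against 13.8 TPM over all tested genes, and 57 of 58 lay above that value, with a range from 10.1 TPM for Wdr12 to 1273 TPM for Npm1. Spearman's rho across the 58 genes between TPM in control and log2 fold change was -0.06 for Oxali and 0.13 for cisplatin. The median gene body was 13.4 kb, against 19.2 kb over all tested genes, and rho between gene body and log2 fold change was 0.17 and 0.03. Genes are not independent replicates, so these are descriptions.

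Some of these genes carry snoRNAs in their own introns. Annotated snoRNA genes lay inside 9 of the 58 (15.5%), against 217 of 12545 tested protein-coding genes (1.73%). Taf1d held 8, Nop56 5, Nop58 4, Ncl, Gnl3 and Wdr43 3 each, Tsr1 and Ppan 2 each and Dkc1 1. In DESeq2, the hosts Ppan and Taf1d were called after neither drug. The other hosts, Nop56, Nop58, Ncl, Gnl3, Wdr43, Tsr1 and Dkc1, were called higher after both, as were 48 of all 58 genes.

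Medians of the genes with and without each motif were as follows. The 12 genes with CACGTG had median log2 fold changes of 0.47 after Oxali and 0.36 after cisplatin, and the 40 without it 0.37 and 0.33. The 21 with CCGGAAG had 0.34 and 0.34, and the 31 without it 0.41 and 0.32. The 3 with TATAAA had 0.33 and 0.24, and the 49 without it 0.39 and 0.34. Myc itself had 1068 and 1005 normalised counts in control, 1602 and 1527 after Oxali, and 2000 and 2117 after cisplatin. It rose by 0.59 ± 0.08 and 0.99 ± 0.08 on the log2 scale (SE; adjusted p in DESeq2 = 5.75e-12 and 2.37e-33) and was lower after Oxali than after cisplatin by 0.40 ± 0.08 (adjusted p in DESeq2 = 5.02e-06). Whether Myc had a part in the changes of the 58 genes was not tested.

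The product of Pol I is largely lost from poly(A) libraries, so these data do not measure rRNA synthesis. The lincRNA gene Gm26917, which the annotation (GENCODE M21, GRCm38) places at chr17:39843013-39846341 beside a gene of type rRNA, had 2359 and 1886 normalised counts in control, 4286 and 4193 after Oxali, and 20255 and 22338 after cisplatin. It rose by 1.00 ± 0.14 and 3.33 ± 0.14 on the log2 scale (SE; adjusted p in DESeq2 = 1.07e-10 and 1.81e-117). Its neighbour Gm42418, which overlaps that rRNA gene, had 2501 and 1832 in control, 1305 and 1296 after Oxali, and 2518 and 2320 after cisplatin. It fell after Oxali by 0.74 (SE 0.19, adjusted p in DESeq2 = 0.000652), a call lost without either Oxali library (-0.74 and -0.73). Whether reads of ribosomal repeats enter these counts was not tested.

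A pair of properties of the counting bear on single genes. Counts were not whole for 26 of the 58 genes, as RSEM gives where reads are shared with another locus, and the other 32 gave 28 higher and 1 lower after Oxali and 28 higher after cisplatin. Exons of 9 genes overlap a gene on the opposite strand whose counts reached at least 10% of their own. Those 9 are Nop56, Dkc1, Nhp2, Gnl3, Rrp9, Heatr1, Pno1, Bop1 and Taf1d, and the other 49 gave 44 higher and 1 lower after Oxali and 41 higher after cisplatin. In bulk RNA, a change in the mix of cells and a change of RNA per cell cannot be told apart.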

How the data were processed

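Poly(A) RNA libraries (TruSeq Stranded mRNA kit, from 100 ng of total RNA) of TRAMP-C2 cells were analysed in 3 groups of 2. The deposited table holds expected counts per gene for the 6 libraries, which the authors made with STAR 2.5.3a and RSEM 1.3.0 on GRCm38.p6 per the submitters' processing notes. The study's methods name a later STAR version and GENCODE vM12 for in vitro RNA-seq, which differs from those notes. Which annotation release and strand setting made this table is not given in the sources used here.

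The values were rounded, and a gene was tested if 2 or more libraries had 10 or more counts, which left 14956 of 54446. DESeq2 1.42.0 (R 4.3.3) was fitted to all 6 libraries with group as the only term, with its size factors and default independent filtering (0.1). DESeq2 p-values were adjusted by the Benjamini-Hochberg method within each comparison, over the tested genes kept by that filtering, with a threshold of 0.05. Any gene without an adjusted p still counted among all tested genes in the shares given. Log2 fold changes were not shrunken. Normalised counts are counts divided by size factors, and 95% intervals are normal intervals from the SE. Symbols and positions came from GENCODE M21, which matched 54409 identifiers, and TPM was recomputed from counts and summed exon length. In these libraries 3 counts equal 0.125 to 0.141 CPM.

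Alternatives were edgeR 4.0.16 (quasi-likelihood test), TMM and total-count scaling, other filters, a replicate block, only the groups compared, and leaving out each library. In the last, a lone library is assumed to vary like the other groups. The fitting code was tested on simulated data. The members and gene lists were chosen with earlier results of these data known. All 58 genes could be named by role. Values per library were given for 11 core genes, for the 5 called genes with the smallest adjusted p in each direction of each comparison, and for genes described with them. From other lists, genes were taken among the called genes with the smallest adjusted p. Rrp12, Gar1, Nop10, Ppan and Polr1e were chosen by role or after their values were seen. Some marker genes are not reported here.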

Additional observations from a re-analysis of the deposited data

How the results depend on the processing

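No call of the 58 genes changed direction under any alternative. Against control, 39 of the 53 Oxali calls and 36 of the 49 cisplatin calls held in every alternative, and between the drugs 5 of 14 did. Between the drugs the number of the 58 genes called was 25 in edgeR, 8 with the replicate block and 5 to 12 without 1 library. For the other ribosome biogenesis genes it was 40, 9 and 2 to 17 in place of 23, and without 1 library it was 44 to 65 after Oxali in place of 72 and 42 to 64 after cisplatin in place of 73. With total-count scaling the median log2 fold change of the 58 genes was 0.29 after cisplatin and 0.079 between the drugs. That scaling moved the log2 fold changes of all tested genes by a median of -0.048 after cisplatin and 0.034 between the drugs. The fits without 1 library also had fewer libraries, and the cause of the changed counts of calls was not tested. Shares of all tested genes called were not counted for those fits or for the replicate block. The replicate numbers are shared only as numbers: deviations from group means in same-numbered libraries correlated at 0.07, -0.05 and -0.19 over 10731 genes, and beyond the counts above the block moved no count of calls by over 1.5 times. With 2 libraries per group, the standard error of a log2 fold change was 0.03 to 0.12 for the 58 genes.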
